A study of Mus musculus with 66 samples.

Results

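The genes described here belong to the proteasome and to the ubiquitin system that supplies it with substrates. They were taken by symbol from the probes of a mouse cDNA filter that carry a single gene symbol. The prefixes were Psma, Psmb, Psmc, Psmd, Psme, Ube2, Ube3, Ube4, Uch and Fbx, together with Uba, Usp, Cul, Rnf and Trim when a digit followed, and Vcp. This gave 122 genes on 145 probes, out of 4209 genes with a single-symbol probe and 7782 features in all (genes, and probes without a single symbol) on 8448 probes. No signal threshold was applied, so all 122 genes stayed in. Of these genes, 101 had 1 probe, 19 had 2 and 2 had 3, and the probes of a gene were averaged.

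Ubiquitin is attached to proteins by a relay of an activating enzyme (E1), a conjugating enzyme (E2) and a ligase (E3), and chains of ubiquitin mark a protein for the proteasome. The proteasome consists of a barrel-shaped core particle with the proteolytic sites inside and a regulatory particle, with a ring of ATPases, that unfolds substrates and feeds them in. Deubiquitinating enzymes remove or trim the chains, and in neurons the system is known for the turnover of synaptic and misfolded proteins.

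Transcripts were measured in the cerebellum of C57BL/6 mice, with 1 filter for each of 66 mice. Adult mice were calorie restricted (CR) or fed ad libitum (AL), and CR mice had regular feed when young and then a fortified feed in amounts lowered in steps. Of the 63 arrays used, CR groups held 9 mice at 6 months (174 to 194 days), 8 at 16 months (474 to 499 days) and 7 at 24 months (673 to 736 days). AL groups held 5 mice at 17-21 days, 5 at 33-44 days, 10 at 6 months (169 to 194 days), 10 at 16 months (476 to 499 days) and 9 at 24 months (704 to 743 days). At 24 months the CR males were all 673 days old, against 719 to 743 days in the AL males, so diet and age cannot be told apart in those males. The CR and AL females used from that cohort were 703 to 736 and 704 to 733 days old.

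The values were Z scores, in which each array has a mean of 0 and an SD of 1 over its probes. A Z unit is thus the SD of all probes on an array, and differences in it cannot be turned into fold changes. The SD of single arrays was not kept in the files, and a change of all transcripts in one direction cannot be seen. The Z score of a probe also depends on how well its clone hybridizes, so levels are compared between mice and not between genes. Cerebellum contains many cell types, and fewer cells of a type cannot be told apart from less RNA per cell.

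The 63 arrays had a median correlation of 0.921 or more with the others. A further 3 arrays, from 2 CR mice of 16 months and 1 CR mouse of 24 months, had 0.695, 0.701 and 0.820 and were left out. No mouse was measured on more than 1 array, and animal differences cannot be told apart from those of single hybridizations within a group. Markers of cerebellar cells were thinly represented, with 2 of 6 Purkinje cell genes (Calb1 and Car8), 1 of 6 astrocyte genes (Slc1a3) and 0 of 6 granule cell genes on the filter. Slc1a3 and 1 of the 2 Purkinje cell markers were above the array mean, as were 48.7% of all features. The labelled tissue could thus not be checked from these levels.

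The clones of a gene did not always behave alike. Among the 21 genes with several probes there were 25 pairs of probes, and in 15 pairs the mean Z scores lay on opposite sides of 0. The correlation over arrays was below 0 in 16 pairs and above 0.8 in 2, with a median of -0.0441. The pairs above 0.8 were those of Psmc1, an ATPase of the regulatory particle (r = 0.950), and of 2 probes of Vcp, the segregase that extracts ubiquitinated proteins from membranes and complexes (r = 0.892). Those 2 Vcp probes are listed under the same sequence record and had mean Z scores of 2.25 and 1.76, whereas the third Vcp probe had -0.977. For Psmd10, a chaperone of regulatory particle assembly, the probes averaged 1.30 and -0.933. Probes of 1 gene thus differed in mean by up to 3.23 Z units, and every gene name below stands for the probe or probes annotated with it.

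**Figure D1:**
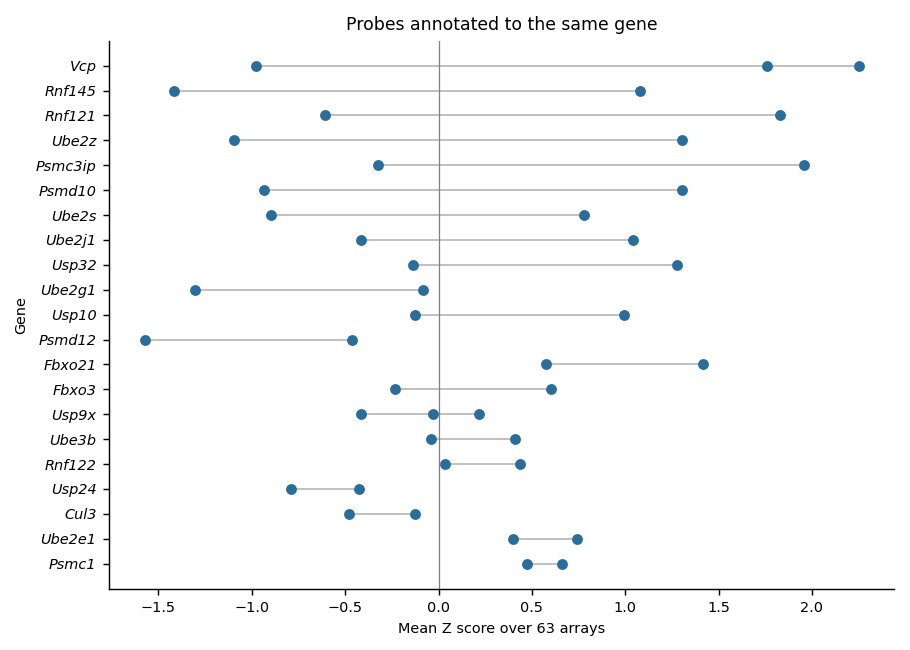
Mean Z score over 63 arrays (horizontal axis) of each probe of the 21 genes that have several probes (1 gene per line), with a grey line joining the probes of a gene. The probes of Vcp lie 3.23 Z units apart at the most, those of Psmc1 0.186, and 15 of the 25 pairs of probes lie on opposite sides of 0.

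By class, the filter carried 4 genes of the core particle, 2 with the Psmc prefix, 7 with the Psmd prefix and 2 with the Psme prefix. Of these, Psmc3ip encodes a cofactor of meiotic recombination and Psme3ip1 a partner of an activator, so 13 were subunits, associated factors or the activator subunit Psme1. The ubiquitin genes comprised Uba3 (a subunit of the activating enzyme for the ubiquitin-like NEDD8), 17 conjugating enzymes, Ube3b (a HECT ligase), 3 cullins, 14 F-box proteins, 28 RING finger proteins and 16 tripartite motif proteins. A further 24 ubiquitin-specific proteases, 2 ubiquitin C-terminal hydrolases and Vcp completed the set. A mean Z score above 0 was found in 62 genes (50.8%), against 3791 of all features (48.7%). The median SD within a group was 0.154 Z units for these genes and 0.167 for all features. Uba3 was the steadiest member, with a within-group SD of 0.0679 around a mean Z score of 1.59.

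How the system stood in old cerebellum was asked first within AL mice. No gene passed the linear model (limma, Benjamini-Hochberg adjusted p under 0.05) between 24 and 6 months, and 0% of all features did. At an unadjusted p under 0.05, 2 of the 122 genes were lower and 0 were higher at 24 months. Over all features 2.49% reached that p, 1.45% lower and 1.04% higher. The median difference of the 122 genes was 0.00613 Z units, with 64 genes above 0 and 58 below, against -0.000375 for all features, 49.7% of which were above 0. The single differences ran between -0.207 and 0.155, and the median 95% interval of a gene was its difference ± 0.143. The Z scores of the 24-month and the 6-month mice overlapped for each of the 122 genes, and 0% of all features had groups apart.

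Within the core particle, 2 genes were above and 2 below 0 between 24 and 6 months, with differences between -0.0515 and 0.0602. Psmb5 (gene ID 19173) encodes the chymotrypsin-like catalytic subunit, the target of clinical proteasome inhibitors. Its Z score averaged 1.07 ± 0.225 in AL mice of 24 months (lowest 0.73, median 1.01, highest 1.39) and 1.11 ± 0.169 in AL mice of 6 months (SD, n = 9 and 10). The limma difference of Psmb5 was -0.0170 (SE 0.0705, 95% interval -0.158 to 0.124). Of the structural subunits, Psma3 differed by 0.0158 (95% interval -0.114 to 0.146), Psma2 by -0.0515 (95% interval -0.232 to 0.129) and Psma5 by 0.0603 (unadjusted p = 0.341).

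In the regulatory particle, the largest difference with age in AL mice was that of Psmd2, a scaffold subunit that receives ubiquitin-like shuttle factors. Psmd2 was at 1.08 ± 0.171 in AL mice of 24 months (lowest 0.81, median 1.12, highest 1.30) and 0.972 ± 0.183 in AL mice of 6 months (lowest 0.83, median 0.91, highest 1.46). The ranges overlapped, and the difference of 0.122 (SE 0.0779) had an unadjusted p of 0.123. Psmc1 differed by 0.0128 (SE 0.108), Psmd4, which binds ubiquitin chains, by 0.0538 (SE 0.0795) and the activator subunit Psme1 by -0.0450 (SE 0.0746). Over the 13 genes the pattern was one of small differences in both directions.

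**Figure D2:**
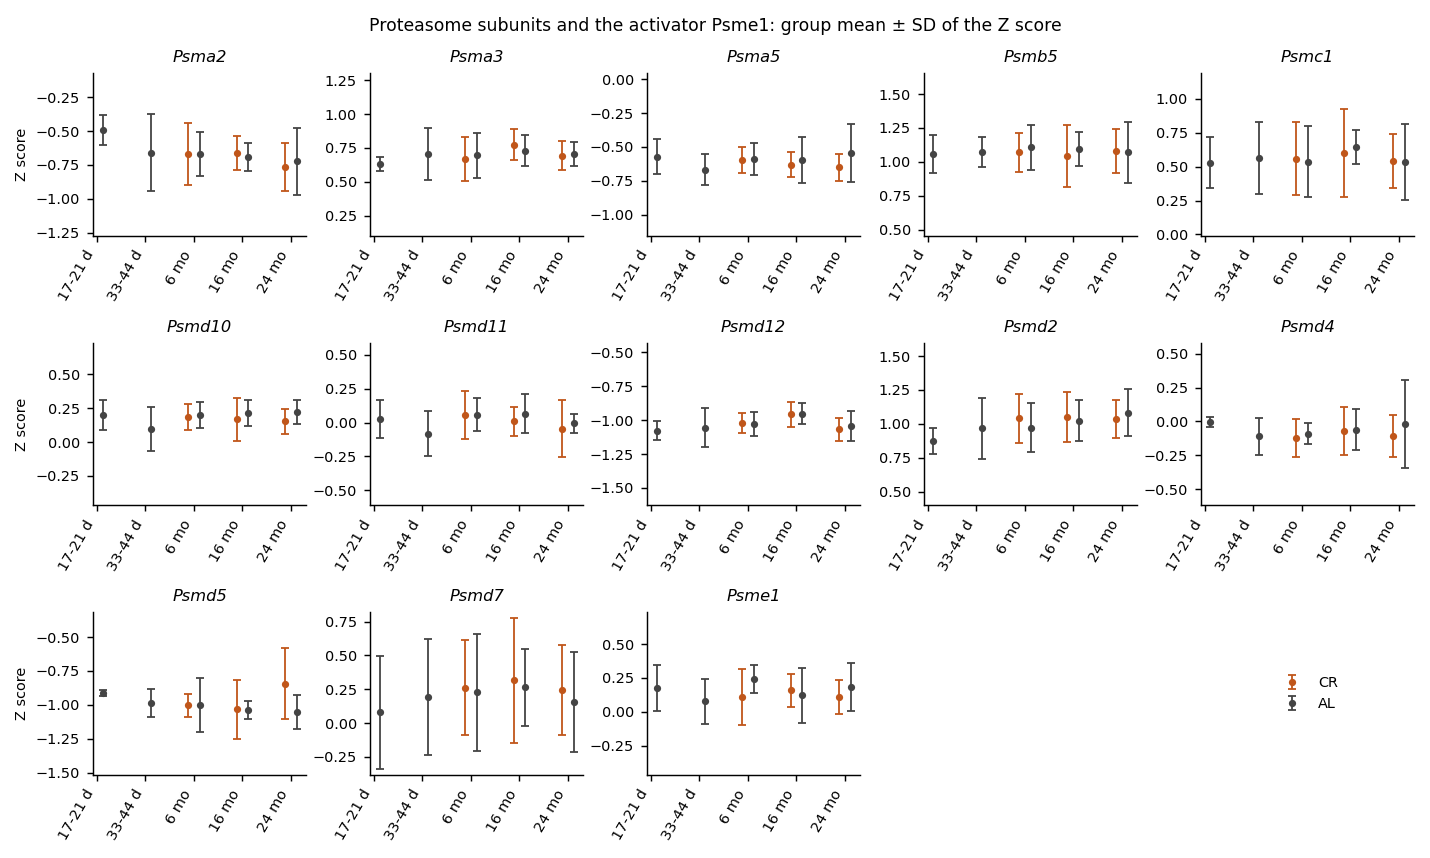
Group means ± SD of the Z score (vertical axis, 1 panel per gene, all panels spanning the same number of Z units) at each age (horizontal axis) for 12 proteasome genes and the activator subunit Psme1, with CR mice in orange and AL mice in dark grey. The bars of neighbouring ages and of the 2 diets overlap in each panel, and the widest separation of CR from AL means is that of Psmd5 at 24 months, -0.843 against -1.05.

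The 2 genes under an unadjusted p of 0.05 between 24 and 6 months were both conjugating enzymes. Ube2d3 (gene ID 66105) encodes a broadly acting E2 that works with many RING ligases. It was at -0.576 ± 0.156 in AL mice of 24 months (lowest -0.87, median -0.56, highest -0.36) and -0.376 ± 0.214 in AL mice of 6 months (lowest -0.62, median -0.40, highest 0.16). The 6-month group contained 1 female, at 0.16, far above its other 9 mice, and the ranges overlapped widely. The limma difference of Ube2d3 was -0.205 (SE 0.0652, unadjusted p = 0.00277, adjusted p = 1), and without that female it was -0.137 (unadjusted p = 0.0153). Between 16 and 6 months Ube2d3 differed by -0.127 (unadjusted p = 0.0498).

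Ube2q1, a conjugating enzyme with a long N-terminal extension, was at -0.053 ± 0.112 in AL mice of 24 months (lowest -0.20, median -0.08, highest 0.12). In AL mice of 6 months it was at 0.149 ± 0.124 (lowest -0.04, median 0.14, highest 0.33). Most of the older mice were below 0 and most of the younger ones above, with overlap. The difference was -0.207 (SE 0.0821, unadjusted p = 0.0148, adjusted p = 1) against 6 months and -0.190 (SE 0.0821, unadjusted p = 0.0246) against 16 months. Ube2q1 alone among the 122 genes passed the study's selection criteria in these comparisons: a Z-ratio of 1.5 or more in size, a mean Z score above 0 and an unadjusted p under 0.05. The p was limma's here, and the analysis of variance that followed in the study was not applied. Those criteria were met by 0.475% of all features between 24 and 6 months and by 0.771% between 24 and 16 months. The other 15 conjugating enzymes lay on both sides of 0, so that the class had 9 genes above and 8 below.

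The deubiquitinating enzymes showed no called difference with age in AL mice. Uchl1 (gene ID 22223) encodes a hydrolase that is abundant in neurons. It was at -0.980 ± 0.241 in AL mice of 24 months (lowest -1.41, median -0.97, highest -0.62) and -0.916 ± 0.198 in AL mice of 6 months (lowest -1.24, median -0.87, highest -0.66). The ranges nearly coincided, and the difference was -0.0478 (SE 0.0831, 95% interval -0.214 to 0.119). Its relative Uchl3 differed by -0.0245 (95% interval -0.125 to 0.0761). Among the 24 ubiquitin-specific proteases 16 were above and 8 below 0 between 24 and 6 months, with a median of 0.0215 and 0 genes at an unadjusted p under 0.05. The smallest p of that class was that of Usp50 (difference 0.155, unadjusted p = 0.132).

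The ligase classes were as evenly divided. Between 24 and 6 months in AL mice, 16 of 28 RING finger genes, 9 of 16 tripartite motif genes, 6 of 14 F-box genes and 1 of 3 cullins were above 0. Their class medians were 0.00281, 0.0120, -0.00762 and -0.0325. Fbxw7, the substrate receptor for Notch, cyclin E and Myc, differed by -0.0055 (SE 0.0698), and Cul1, the scaffold of the ligases that hold F-box proteins, by 0.0887 (SE 0.0712). Cul3, the scaffold for BTB-domain receptors, differed by -0.0325 (SE 0.0851). Vcp differed by 0.0405 (SE 0.0627).

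**Figure D3:**
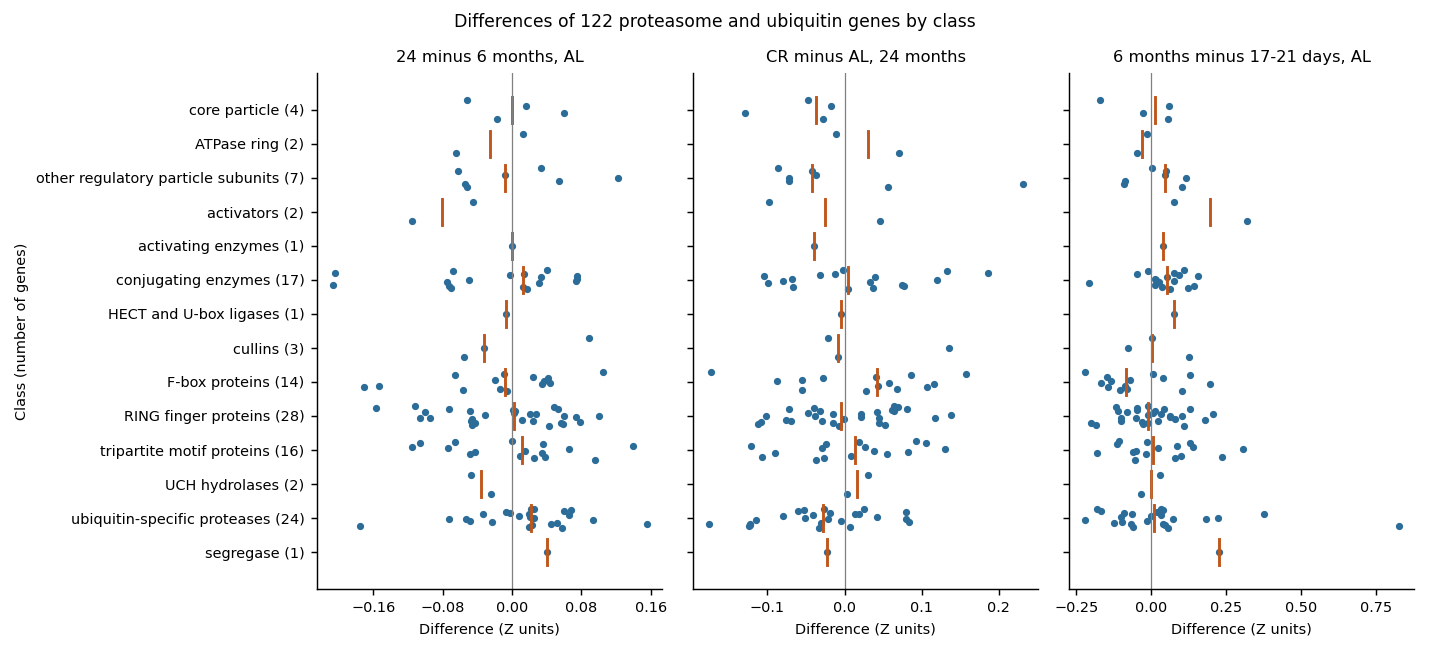
Differences of the 122 genes in Z units (horizontal axis, scaled to each panel) by class (vertical axis, number of genes in parentheses) for 24 minus 6 months in AL mice, CR minus AL at 24 months, and 6 months minus 17-21 days in AL mice. Points are genes, orange bars class medians and the grey line 0; each class with 3 or more genes has points on both sides of 0 except the core particle in the middle panel, where 4 of 4 genes are below 0.

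The intermediate intervals gave the same absence of calls. Between 16 and 6 months in AL mice 0 genes passed the limma test (0% of all features), 1 had an unadjusted p under 0.05 and was lower at 16 months (1.34% of all features, 0.745% higher and 0.591% lower). Of the 122 genes 73 were above 0, which is 59.8%, against 50.8% of all features. Between 24 and 16 months in AL mice 0 genes passed (0% of all features), and 5 had an unadjusted p under 0.05 (3.92% of all features), 1 higher (1.46% of all features) and 4 lower (2.45%). The 3 smallest p belonged to F-box genes: Fbxw15 differed by -0.232 (unadjusted p = 0.0088), Fbxl13 by 0.234 (unadjusted p = 0.0127) and Fbxw19 by -0.227 (unadjusted p = 0.0138). At 24 minus 16 months 49 genes were above 0 and 73 below, against 48.6% of all features above 0. Both comparisons share the 16-month mice.

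In CR mice too, 0 genes passed the limma test over 16 minus 6, 24 minus 16 and 24 minus 6 months, each with 0% of all features called. An unadjusted p under 0.05 was reached by 3, 4 and 1 genes in that order, against 2.13%, 2.51% and 1.12% of all features. The groups overlapped for each of the 122 genes, as they did for all features except 0.0129% at 24 minus 16 months. Psmd5, a chaperone in regulatory particle assembly, differed by 0.210 between 24 and 16 months (SE 0.0785, unadjusted p = 0.0100) and by 0.172 between 24 and 6 months (SE 0.0766, unadjusted p = 0.0294). Psmd12, a scaffold subunit of the regulatory particle, differed by -0.117 between 24 and 16 months in CR mice. Age took up to 19.6% of the sum of squares of a member over the adult arrays, the highest share being that of Psmd12.

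The effect of diet was asked at each adult age. At 6 months 0 genes passed the limma test and 0 had an unadjusted p under 0.05, with 0% and 0.655% of all features. At 16 months 0 genes passed (0% of all features) and 5 had an unadjusted p under 0.05 (2.13% of all features), 1 higher (0.977%) and 4 lower (1.16%) in CR mice. At 24 months 0 genes passed (0% of all features) and 3 had an unadjusted p under 0.05, all of them higher in CR mice, against 2.25% of all features, 1.13% higher and 1.12% lower. The CR and AL ranges overlapped for every one of the 122 genes at all 3 ages, and 0% of all features had groups apart. Median differences were 0.00144, -0.001 and -0.00942 Z units at 6, 16 and 24 months.

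By class, CR minus AL at 24 months was below 0 for 4 of 4 core particle genes and 5 of 7 genes with the Psmd prefix, with medians of -0.0375 and -0.0424. Psma5, a structural core subunit, had the widest core difference, at -0.650 ± 0.0983 in CR mice (lowest -0.75, median -0.67, highest -0.45) and -0.546 ± 0.213 in AL mice (lowest -0.81, median -0.57, highest -0.13). The CR range lay inside the AL range, and the difference was -0.129 (SE 0.0691, unadjusted p = 0.0685). Of the ubiquitin-specific proteases 16 of 24 were below 0 (median -0.0284), while 9 of 14 F-box genes (0.0423), 9 of 16 tripartite motif genes (0.0130), 9 of 17 conjugating enzymes (0.00467) and 13 of 28 RING finger genes (-0.00446) were above 0. In all, 55 of the 122 genes were above 0, which is 45.1%, against 52.6% of all features. In the females alone, whose ages matched, the classes were placed otherwise: 2 of 4 core particle genes (median 0.0340), 5 of 7 genes with the Psmd prefix (0.0510) and 17 of 24 ubiquitin-specific proteases (0.0635) were above 0. RING finger genes were above 0 in 11 of 28 (-0.0315), F-box genes in 8 of 14 (0.0376), tripartite motif genes in 10 of 16 (0.0470) and conjugating enzymes in 11 of 17 (0.0283) in these females.

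At 24 months the smallest p for diet was that of Psmd5 (gene ID 66998). Its Z score averaged -0.843 ± 0.262 in CR mice (lowest -1.03, median -0.92, highest -0.27) and -1.05 ± 0.128 in AL mice (lowest -1.24, highest -0.91). A single CR male, at -0.27, stood apart, and the other 6 CR mice were between -1.03 and -0.82, largely inside the AL range. The difference was 0.231 (SE 0.0766, unadjusted p = 0.00399, adjusted p = 0.999), and without that male it was 0.125 (unadjusted p = 0.0947). Without him the Psmd5 difference between 24 and 16 months in CR mice was 0.104 (unadjusted p = 0.172). The Psmd5 difference between 24 and 6 months in CR mice given above also includes him.

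Ube2d3 was at -0.404 ± 0.128 in CR mice of 24 months (lowest -0.59, median -0.40, highest -0.25), against -0.576 ± 0.156 in AL mice of that age. The difference was 0.186 (SE 0.0719, unadjusted p = 0.0126, adjusted p = 0.999), and without the lowest AL male, at -0.87, it was 0.145 (unadjusted p = 0.0505). At 6 months Ube2d3 was at -0.450 ± 0.0770 in CR mice and -0.376 ± 0.214 in AL mice. The difference between the age effects of the diets (24 minus 6 months, CR minus AL) was 0.262 for Ube2d3 (SE 0.0970, unadjusted p = 0.00919) and 0.226 for Psmd5 (SE 0.103, unadjusted p = 0.0337). These were the 2 genes with an unadjusted p under 0.05 in that interaction (0.9% of all features), and 0 genes passed (0% of all features). Both interaction values include single mice named above and are not given here without them. For Ube2d3 these are the AL female of 6 months at 0.16 and the AL male at -0.87, and for Psmd5 the CR male at -0.27.

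At 16 months the widest difference was that of Usp7, a protease that removes ubiquitin from p53 and from its ligase Mdm2. It was the most variable of the 122 genes, with a within-group SD of 0.967 around a mean Z score of -3.25. Usp7 was at -4.15 ± 2.15 in CR mice of 16 months (lowest -9.01, median -3.63, highest -2.00) and -2.85 ± 0.647 in AL mice (lowest -3.81, median -2.65, highest -1.73). The value of -9.01, the lowest Z score of any probe on any array, came from 1 CR female. The difference was -1.31 (SE 0.435, unadjusted p = 0.00414, adjusted p = 1), and without her it was -0.609 (unadjusted p = 0.0592). Usp8, a protease of endosomal sorting, met the study's criteria in this comparison (0.668% of all features did) at 0.116 ± 0.127 in CR mice and 0.246 ± 0.133 in AL mice. Its difference of -0.130 had an unadjusted p of 0.0492.

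**Figure D4:**
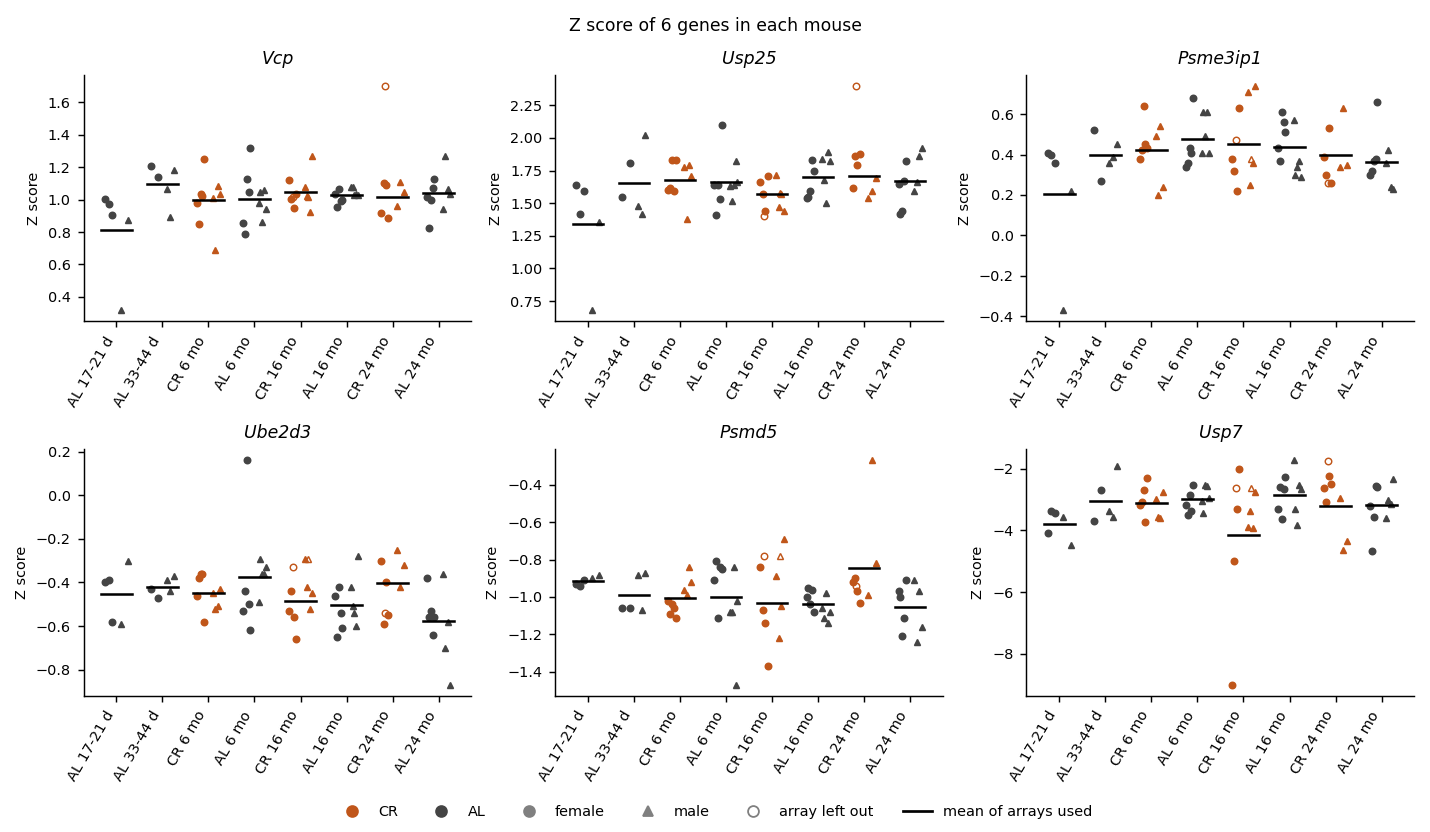
Z score (vertical axis) of 6 genes in each mouse by diet and age (horizontal axis), with CR mice in orange, AL mice in dark grey, females as circles, males as triangles, arrays left out as open symbols and the mean of the arrays used as a line. Single mice stand apart: the AL male of 17-21 days at 0.317 for Vcp and -0.37 for Psme3ip1, the AL female of 6 months at 0.16 for Ube2d3, the CR male of 24 months at -0.27 for Psmd5 and the CR female of 16 months at -9.01 for Usp7.

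Among females of 24 months, where CR and AL ages matched, 0 genes passed the limma test (0% of all features) and 9 had an unadjusted p under 0.05 (5.37% of all features), 3 higher (1.85%) and 6 lower (3.52%) in CR mice. Of the 122 genes 73 were above 0, which is 59.8%, against 49.7% of all features. Psmb5 was at 1.06, 1.26, 1.14 and 1.31 in the CR females and at 0.90, 0.73, 0.97, 0.90 and 1.14 in the AL females. All but 1 of the CR values were at or above the highest AL value, 1.14. The Psmb5 difference was 0.265 (SE 0.103, 95% interval 0.0587 to 0.470, unadjusted p = 0.0128, adjusted p = 0.739). Over the settings tried it lay between 0.148, after the position correction, and 0.318, without 1 AL female.

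Rnf214, a little studied RING finger protein, was between -0.25 and 0.11 in the 4 CR females and between 0.20 and 0.30 in the 5 AL females, with no overlap. It was 1 of 6 genes (4.92%) whose CR and AL females did not overlap, against 2.24% of all features. The Rnf214 difference was -0.293 (SE 0.104, unadjusted p = 0.0068, adjusted p = 0.739) and, without the CR female at -0.25, -0.218 (unadjusted p = 0.0553). Rnf130, a RING finger protein first described in dying myeloid cells of mice, differed by -0.270 (unadjusted p = 0.0155). Psmb5, Rnf214 and Fbxo3, an F-box protein with an ApaG domain, met the study's criteria, as 1.49% of all features did.

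After these values were seen, the males of 24 months were compared on their own, and the difference between the sexes in the diet effect was tested. Psmb5 was at 0.87, 0.96 and 0.96 in the 3 CR males and at 1.01, 1.39, 1.25 and 1.35 in the 4 AL males. The ranges did not overlap, as was so for 22 of the 122 genes (18.0%) and 13.5% of all features in males, and the order of the diets was the opposite of that in the females. The difference in males was -0.320 (SE 0.117, unadjusted p = 0.00837), and the difference between the sexes (CR minus AL, female minus male) was 0.585 (SE 0.155, 95% interval 0.273 to 0.896, unadjusted p = 0.0004, adjusted p = 0.128). Without each of the 24-month mice in turn it lay between 0.535 and 0.664.

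Rnf130 likewise ran in opposite directions. It was between -0.80 and -0.75 in the 4 CR females and between -0.72 and -0.19 in the 5 AL females, and between -0.54 and -0.44 in the 3 CR males and between -1.08 and -0.51 in the 4 AL males. The difference between the sexes was -0.668 for Rnf130 (SE 0.163, unadjusted p = 0.0001, adjusted p = 0.128). Over the 122 genes, 0 passed in males (0% of all features) and 25 had an unadjusted p under 0.05, which is 20.5% of the genes, against 12.8% of all features. Without the CR male at -0.27 for Psmd5 that number was 10 (5.91% of all features), without the AL male at -0.87 for Ube2d3 it was 13 (6.36%), and without the AL male at 1.01 for Psmb5 it was 35 (22.5%). For the difference between the sexes 0 genes passed (0.0257% of all features did), and 33 had an unadjusted p under 0.05, which is 27.0% of the genes, against 20% of all features.

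These counts depended on the weight given to single arrays. With array weights 44 genes passed in males (30.3% of all features) and 48 for the difference between the sexes (35.9% of all features), and with all 66 arrays 0 genes passed in males (0% of all features) and 4 for the difference between the sexes (3.2% of all features). Without 1 AL male, that with 1.01 for Psmb5, 10 genes passed for the difference between the sexes (4.3% of all features). The CR males were also younger than the AL males, as given above, so diet and age cannot be told apart in either result.

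In young AL mice the cerebellum is still maturing, and here more of the filter differed in the main fit. Between 33-44 and 17-21 days 24 of all features passed the limma test (0.308%) and 0 of the 122 genes, while 10 genes had an unadjusted p under 0.05 (13.4% of all features), 6 higher (6.82%) and 4 lower (6.53%) at 33-44 days. Between 6 months and 17-21 days 32 of all features passed (0.411%) and 0 of the 122 genes, while 8 genes had an unadjusted p under 0.05 (10.7% of all features), 4 higher (5.69%) and 4 lower (5%) at 6 months. These totals of all features depended on the setting. With all 66 arrays, after quantile normalization or with no term for sex, 0 features passed in either comparison. With array set (a run of array numbers) as a block, 0 and 45 features passed in that order. When features with a mean Z score of 0 or less were left out, 46 and 50 passed. Both comparisons share the 5 mice of 17-21 days. Over these 2 comparisons 0 of the 122 genes had groups that did not overlap, against 0.424% and 0.0386% of all features.

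Between 33-44 and 17-21 days, Vcp (gene ID 269523) came closest to the threshold. It was at 1.21, 1.14, 1.06, 0.893 and 1.18 in the mice of 33-44 days and at 1.00, 0.973, 0.907, 0.317 and 0.877 in those of 17-21 days. A single male of 17-21 days was far below the other 4 mice of its age, which were between 0.877 and 1.00. The difference was 0.331 (SE 0.0879, unadjusted p = 0.000427, adjusted p = 0.0810), and without that male it was 0.191 (unadjusted p = 0.0440, adjusted p = 0.780). Over the probes of Vcp the difference was 0.587 and 0.412 for the 2 probes of the same sequence record and -0.00667 for the third. At 6 months Vcp was at 1.00 ± 0.154, and its difference from 17-21 days was 0.224 (SE 0.0756, adjusted p = 0.246) with that male and 0.0841 (unadjusted p = 0.313) without him.

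Usp25, a protease known in T cells and in protein quality control at the endoplasmic reticulum, was at 1.55, 1.81, 1.48, 1.42 and 2.02 in the mice of 33-44 days. At 17-21 days it was at 1.64, 1.42, 1.59, 0.68 and 1.36, the value of 0.68 being that of the same male. The difference was 0.375 (SE 0.114, unadjusted p = 0.0018, adjusted p = 0.135), and 0.374 for 6 months minus 17-21 days (SE 0.0981, unadjusted p = 0.000364, adjusted p = 0.0640). With array set (a run of array numbers) as a block the second of these was 0.339 (adjusted p = 0.0327), past the threshold. Without that male the Usp25 differences were 0.205 (unadjusted p = 0.0975) and 0.204 (unadjusted p = 0.0661).

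Psme3ip1, a partner of the nuclear proteasome activator PA28 gamma, was at 0.475 ± 0.118 at 6 months (lowest 0.34, highest 0.68) and at 0.41, 0.40, 0.36, -0.37 and 0.22 at 17-21 days. Again the same male was the lowest, at -0.37. The difference was 0.318 (SE 0.0826, unadjusted p = 0.00033, adjusted p = 0.0611), and without him it was 0.170 (unadjusted p = 0.0672). Vcp, Usp25 and Psme3ip1 met the study's criteria between 6 months and 17-21 days (4.07% of all features did), and Vcp, Usp25 and the F-box gene Fbxo42 did so between 33-44 and 17-21 days (4.1% of all features).

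The array of that male had the lowest median correlation of those used, 0.921. When the probe numbers are counted round in cycles of 22, the twelfth position holds all 3 probes of Vcp and that of Psme3ip1. Its mean Z score was -0.203 on this array, against -0.0889 over the arrays used, the second lowest of 63. Other positions of this array also stood at an end: positions 9 and 10 were likewise second lowest, and position 20 was highest. When each array's deviation at each position was taken out (the position correction), Vcp differed by 0.279 between 33-44 and 17-21 days (adjusted p = 0.0450). The part that the quality of this array had in these differences was not tested beyond these values. When instead the other male of 17-21 days was left out, so that this one stood alone for its sex, 6 genes (4.92%) passed in each comparison, with 628 (8.07%) and 572 (7.35%) of all features.

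Other members differed the other way between 33-44 and 17-21 days. Ube2o, a large enzyme that acts as both E2 and E3 in maturing red cells, was at -0.788 ± 0.231 at 33-44 days and -0.498 ± 0.129 at 17-21 days, a difference of -0.302 (SE 0.107, unadjusted p = 0.00674, adjusted p = 0.217). Between 6 months and 17-21 days Ube2o differed by -0.208 (unadjusted p = 0.0281). Without the male of 17-21 days that was lowest for Vcp, the 2 Ube2o differences were -0.232 and -0.138. Between 6 months and 17-21 days 14 conjugating enzymes were above and 3 below 0, with a median of 0.0520. Of the F-box genes 5 were above and 9 below, with a median of -0.0850. In all, 67 of the 122 genes (54.9%) were above 0 there, against 48.5% of all features. These genes share the same mice of 17-21 days, that male included. Of the Purkinje cell markers on the filter, Car8 differed by 0.290 (unadjusted p = 0.0075) and Calb1 by -0.161 (unadjusted p = 0.0268) between 6 months and 17-21 days. Their summed Z score was between 0.56 and 1.20 at 6 months and between 0.205 and 1.17 at 17-21 days, and whether a shift in cell types had a part in the gene differences was not tested.

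Between the sexes, over the adult groups, 0 genes passed (0% of all features) and 2 had an unadjusted p under 0.05 (1.29% of all features). Rnf150, a RING finger protein of the same family as Rnf130, differed by -0.136 (female minus male, SE 0.0612, unadjusted p = 0.0302), and Uba3 by 0.0458 (SE 0.0226, unadjusted p = 0.0479). The median 95% interval of a gene was narrowest here, at its difference ± 0.0862.

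Other genes of the pathway were counted from a list of ubiquitin and ubiquitin-like factors, ligases and adaptors outside the symbol rule, of which 46 of 103 were on the filter and 19 had a mean Z score above 0. In all 14 comparisons 0 of them passed the limma test. All features passed at 0.308% between 33-44 and 17-21 days, at 0.411% between 6 months and 17-21 days and at 0% in the others. Park7, a redox-sensitive protein altered in familial parkinsonism, differed by 0.548 between 24 and 6 months in AL mice (SE 0.191, unadjusted p = 0.00602). It was the only gene of the list with an unadjusted p under 0.05 there, a p that 2.49% of all features reached. Ubqln4, a shuttle factor to the proteasome, differed by 0.438 between 33-44 and 17-21 days (unadjusted p = 0.00335, adjusted p = 0.169), and the HECT ligase Wwp1 by 0.241 (unadjusted p = 0.0143).

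Most of the spread of the adult values went neither with age nor with diet or sex. The arrays fell into 5 runs of array numbers, called array sets here, none of which held more than 1 array per sex-age-diet group. Over the 53 adult arrays, array set accounted for a median of 18.1% of the sum of squares of a gene, age for 2.14%, diet for 0.560% and sex for 0.496%. The degrees of freedom alone correspond to 7.69%, 3.85%, 1.92% and 1.92%, and the medians of all features were 21.4%, 2.56%, 0.575% and 0.473%. For 56 of the 122 genes the share of array set was above 20%. Psmd7, a partner of the deubiquitinating subunit of the regulatory particle, had 47.7%, its mean Z score being -0.0742, 0.0112, 0.606, 0.316 and 0.324 in sets 1 to 5.

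**Figure D5:**
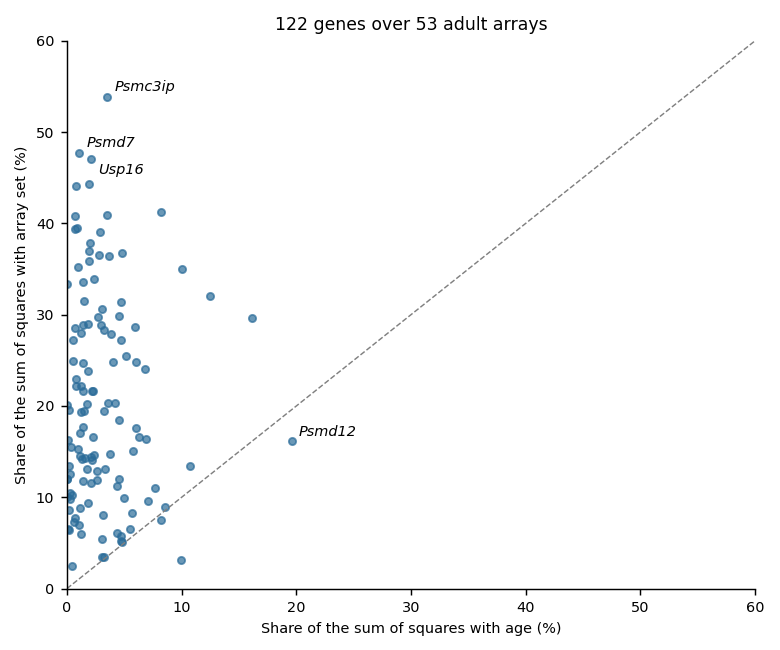
Share of the sum of squares over 53 adult arrays that went with array set (vertical axis, %) and with age (horizontal axis, %), 1 point per gene, with the line of equal shares dashed. Most of the 122 points are above the line, with Psmc3ip highest for array set at 53.9% and Psmd12 highest for age at 19.6%.

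Whether subunits of 1 complex varied together was described over the 63 arrays. There the median correlation between the 13 proteasome genes was 0.0385 in 78 pairs, against 0.0138 for all pairs of the 122 genes and -0.00817 for all features. The subunit pairs ran between -0.596 and 0.789. The points share arrays and array sets, and the centring of each array at 0 ties all features to each other, so these values describe the arrays only.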

How the data were processed

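The deposited values were Z scores (unit: score) that the authors computed for each array from phosphor images of nylon filters hybridized with radiolabelled cDNA. The treatment of background and the use of logarithms are not given in the sources used here. Gene symbols came from the platform annotation (4875 probes with 1 symbol, 224 with several, 3349 with none), and all 122 symbols matched a gene ID in RefSeq GRCm38.p6. The members and gene lists were chosen with earlier results of these data known.

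Arrays with a median correlation under 0.9 with the others were left out. No 2 arrays were identical. Groups were sex, age and diet from the labels (16 groups). Each of the 7782 features was fitted with a linear model of group means (limma 3.58.1, R 4.3.3, 47 residual degrees of freedom), with the sexes weighted equally, so a difference need not equal that of the pooled means. P-values were two-sided and Benjamini-Hochberg adjusted over all features in each of 14 comparisons. The code was tested on simulated data. Named genes were those of a fixed list of 27 symbols, 12 of them measured, the members with the smallest p per comparison and class, and those meeting the study's selection criteria (its analysis of variance was not applied). Rnf130 and other genes named for a single mouse were chosen after their values were seen. The number of arrays limits the precision.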

Additional observations from a re-analysis of the deposited data

Results flagged for a closer look

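For 14 genes, a mouse whose gap to its nearest neighbour was large for the range of its group was looked for in 112 groups, and 8 were found. Chance alone gives about 1 in 20 groups such a mouse where groups are independent and not selected. Some of these genes were named for a small p, and the same mouse can count for several genes. That rate is thus no measure for the 8 found. A single AL male of 17-21 days gave Vcp at 0.317 (nearest mouse 0.877) and Psme3ip1 at -0.37 (nearest 0.22). Psme3ip1 was at 0.66 in 1 AL female of 24 months (nearest 0.42). Ube2d3 was at 0.16 in 1 AL female of 6 months (nearest -0.29). Psmd5 was at -0.27 in 1 CR male of 24 months (nearest -0.82) and at -1.47 in 1 AL male of 6 months (nearest -1.11). Usp7 was at -9.01 in 1 CR female of 16 months (nearest -4.99). Psmc1 was at 0.11 in 1 AL male of 33-44 days (nearest 0.605). The differences of Vcp, Psme3ip1, Ube2d3, Psmd5 and Usp7 without these mice stand in the report beside the values they touch.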

How the results depend on the processing

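In 12 of the 14 comparisons 0 of the genes passed under every planned setting, leaving out each mouse included. Between 33-44 and 17-21 days, 1 gene (Vcp) passed when features with a mean Z score of 0 or less were left out (1.61% of the genes kept, 1.21% of the features kept), 1 (Vcp) after the position correction (0.82%, against 0.874% of all features) and 1 (Vcp) with each probe on its own (0.69% of their probes, 0.249% of all), and between 0 and 6 when 1 mouse was left out. Between 6 months and 17-21 days, 2 genes (Psme3ip1 and Usp25) passed without the features at or below 0 (3.23%, against 1.32%), 1 (Usp25) with array set as a block (0.82%, against 0.578%), 1 (Usp25) after the position correction (0.82%, against 0.54%), 1 (Vcp) with each probe on its own (0.69%, against 0.414%), and between 0 and 6 when 1 mouse was left out. With 6 genes each, the highest counts came without 1 AL male of 17-21 days (4.92%, against 8.07% and 7.35% of all features). For the comparisons chosen after seeing the data, 0 genes passed in the main fit. Array weights gave 44 genes in males (36.1%, against 30.3% of all features) and 48 for the difference between the sexes (39.3%, against 35.9%). All 66 arrays gave 4 for the difference between the sexes (3.28%, against 3.2%). Leaving out 1 mouse gave 0 in males and 0 to 10 for that difference (at the highest 8.2%, against 4.3%). With a Z-ratio of 1.0 in place of 1.5, the study's criteria were met by 2 genes at 24 minus 16 months in AL mice (1.21% of all features), 2 for diet at 16 months (0.848%), 5 at 33-44 minus 17-21 days (7.09%), 5 at 6 months minus 17-21 days (6.22%) and 1 between the sexes (0.18%).

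Changes of sign were found in 8 uncalled differences between -0.0477 and 0.0375 and in that of Cul3 for diet at 24 months, 0.136 with all mice used. For 24 minus 6 months in AL mice, Uba3 became 0.00148 with the block, 0.00912 with array weights and -0.00975 to 0.0105 without 1 mouse, and Ube3b became 0.0025 after quantile normalization, 0.00272 with array weights and -0.0315 to 0.0145 without 1 mouse. For diet at 24 months, Ube3b became 0.00638 with all 66 arrays, 0.00752 with the block, 0.00552 after the position correction, 0.0191 with array weights and -0.0266 to 0.0203 without 1 mouse. There, Cul3 lay between -0.00725, without the CR male at 0.475 for Cul3, and 0.220 without 1 mouse, Uchl1 -0.00362 with array weights and -0.0225 to 0.0800 without 1 mouse, and Vcp 0.0477 with all 66 arrays and -0.0453 to 0.00942 without 1 mouse. For 6 months minus 17-21 days, Psmc3ip lay between -0.0977 and 0.00233 and Uchl3 between -0.114 and 0.0457 without 1 mouse, and Uba3 became -0.000267 after quantile normalization. The causes were not tested. The labels give no replicate number that ties mice of different groups, so the block fitted was array set, and it changed no call but that of Usp25. The values hold no background signal, so which of the probes were above it is unknown here, and with 5 to 10 mice per age and diet the median 95% interval of a gene was its difference ± 0.143 for 24 minus 6 months in AL mice and ± 0.172 for 6 months minus 17-21 days.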
